A study of Homo sapiens with 30 samples.

Results

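The 33 genes described here encode the enzymes that build purine and pyrimidine nucleotides and supply them with one-carbon units. They were taken by symbol from a list of members, and all 33 were found among the 26228 genes of the deposited expression table. All 33 also passed the filter on low values, a mean of at least 1 FPKM (fragments per kilobase, scaled for the reads of a library) over all libraries, which left 11575 genes to be tested. RNA-Seq was performed on the established neuroblastoma (NB) cell line SH-EP (SHEP parental cells in the labels), and on 4 lines made from it that express exogenous MYCN. The 4 lines carry WT MYCN, MYCN T58A, MYCN S62A, or MYCN with both T58A and S62A. Each of the 5 lines was treated for 6 hours with DMSO or with 1 μM CYC065, an inhibitor of the kinases CDK9 and CDK2, which gave 10 groups of 3 libraries and 30 libraries in all. The mutations remove residues whose phosphorylation controls MYCN turnover. The MYCN lines are stable retroviral lines with the transgene under an exogenous promoter, so the transgene does not follow the regulation of the native gene, and the SH-EP group carries no MYCN transgene. Nothing in the labels says that the libraries of a group came from separate cultures, so p-values measure only the spread between these libraries, which may be technical. Since libraries of each group have no usable number, they are called a, b, and c in the order of the table's columns, and a letter links no libraries across groups.

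Purine synthesis starts from phosphoribosyl pyrophosphate (PRPP), made by PRPS1 and PRPS2, and proceeds in a chain of reactions from PPAT to ATIC, whose product is inosine monophosphate (IMP). IMPDH1 or IMPDH2 and then GMPS convert IMP to GMP. Pyrimidine synthesis runs through CAD, DHODH, and UMPS to UMP, and CTPS1 and CTPS2 make CTP. Ribonucleotide reductase (RRM1 with RRM2 or RRM2B), TYMS, and DUT make and guard the deoxynucleotides needed to copy DNA, while DCTPP1 clears unwanted ones. Folate enzymes of the cytosol (SHMT1, MTHFD1) and of mitochondria (SHMT2, MTHFD2, MTHFD1L) supply carbon for the purine ring and for thymidylate. Several of these genes are textbook targets of MYC family proteins, which bind the E-box CACGTG, and proliferating cells use these pathways heavily.

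MYCN read 0 FPKM in all 6 SH-EP libraries, and its mean ± SD (n = 3) with DMSO was 12.9 ± 1.09 FPKM with WT, 8.52 ± 1.29 with T58A, 5.72 ± 0.778 with S62A, and 13.5 ± 3.83 with T58A S62A. With DMSO the native MYC gene stood at 4.94 ± 0.491 FPKM in SH-EP and between 0.446 and 1.60 FPKM on average in the MYCN lines. With CYC065 it averaged 17.4 FPKM in SH-EP and 4.40 to 12.6 FPKM in the MYCN lines as deposited. MYCN with CYC065 averaged 16.4 FPKM with WT, 11.2 with T58A, 6.64 with S62A, and 18.3 with T58A S62A as deposited. On the spike-in scale, described below, MYCN averaged 17.4 with DMSO and 6.89 with CYC065 in WT, and 14.0 and 8.01 in T58A. In S62A it averaged 4.77 and 1.94, and in T58A S62A 24.2 and 15.5. Of 6 adrenergic NB markers, PHOX2A and DBH were at or near 0 in all groups and TH and ISL1 averaged at most 1.39 FPKM, whereas with DMSO HAND2 averaged 46.1 to 84.5 FPKM and GATA3 3.86 to 9.27 FPKM over the 5 lines. VIM, a mesenchymal marker, made up most of the summed mesenchymal level. With DMSO it averaged 2496 FPKM in SH-EP and 1335 to 1766 FPKM in the MYCN lines. FN1 averaged 303 and 28.3 to 52.1 FPKM, and PRRX1 111 and 37.7 to 88.9 FPKM. The means of SNAI2 and NOTCH2 were also lower than in SH-EP in every MYCN line. In contrast, WWTR1 averaged 24.1 FPKM in SH-EP and 24.8 to 26.9 FPKM in the MYCN lines, and YAP1 24.3 and 19.9 to 28.6 FPKM. The summed level of 7 mesenchymal markers was 2939 to 3049 FPKM in SH-EP and 1441 to 2087 in the MYCN lines, and that of the 6 adrenergic markers was 89.1 to 94 and 54.5 to 95 FPKM, all with DMSO. The part of these markers in the results below was not tested. FPKM hold no read counts. The depth of the libraries relative to the deepest, read from the steps of 2023 low genes, was 0.47 to 1 with DMSO and 0.31 to 0.563 with CYC065, and no library reported a member at 0. The index sequences of all 6 SH-EP libraries were also used for MYCN-line libraries, so these libraries cannot all have shared 1 sequencing pool. The labels name no pools, so whether the pool went with the presence of MYCN is not known. If it did, pool and MYCN cannot be told apart.

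Promoters, 250 bases before to 50 bases after a transcript start, were available for 29 of the 33 genes (RefSeq, GRCh38.p14), and ADSL, IMPDH2, RRM2B, and SHMT2 had no entry. The palindrome CACGTG, which reads the same on both strands, occurred in the promoters of 8 of these 29 genes (27.6%). It occurred in those of 13.1% of the tested genes that had a promoter entry. Counted per promoter, 10 of 45 member promoters (22.2%), 9.57% of the promoters of tested genes, and 7.26% of all 35116 promoters held it. Overlapping promoters of MTHFD1L hold the same copy, from position 150866332 of chromosome 6, and this copy is counted with each of them. The genes were ATIC, PPAT, PAICS, MTHFD1L, MTHFD1, DCTPP1, DHODH, and NME1. The longer palindrome CCACGTGG, which contains CACGTG, was present in the promoters of DCTPP1 and NME1. These are 2 of the 29 genes (6.9%), beside 1.59% of the tested genes with a promoter entry. Counted per promoter it was in 2 of 45 (4.44%), in 1.16% of those of tested genes, and in 0.928% of all promoters. Printed here are the promoters of PAICS, PPAT, DCTPP1, NME1, and DHODH, whose levels are given library by library in the sections that follow, and that of ATIC, which holds 2 copies. PAICS and PPAT lie head to head and share 1 copy of the E-box. Each runs 5′ to 3′ on the gene's own strand, and capitals mark CACGTG.
PAICS (chr4:56435502-56435801, plus strand): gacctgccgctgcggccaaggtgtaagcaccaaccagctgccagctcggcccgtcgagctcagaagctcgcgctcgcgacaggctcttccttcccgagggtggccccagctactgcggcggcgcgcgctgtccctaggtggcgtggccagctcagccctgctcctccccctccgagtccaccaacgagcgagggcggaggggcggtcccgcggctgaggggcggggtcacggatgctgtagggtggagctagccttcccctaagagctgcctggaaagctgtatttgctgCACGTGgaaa
PPAT (chr4:56435566-56435865, minus strand): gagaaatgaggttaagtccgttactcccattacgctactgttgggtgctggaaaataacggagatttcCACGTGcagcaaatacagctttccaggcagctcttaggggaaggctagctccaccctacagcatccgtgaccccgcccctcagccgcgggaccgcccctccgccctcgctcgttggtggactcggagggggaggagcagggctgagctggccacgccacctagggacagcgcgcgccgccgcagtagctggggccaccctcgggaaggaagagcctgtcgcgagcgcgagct
DCTPP1 (chr16:30429751-30430050, minus strand): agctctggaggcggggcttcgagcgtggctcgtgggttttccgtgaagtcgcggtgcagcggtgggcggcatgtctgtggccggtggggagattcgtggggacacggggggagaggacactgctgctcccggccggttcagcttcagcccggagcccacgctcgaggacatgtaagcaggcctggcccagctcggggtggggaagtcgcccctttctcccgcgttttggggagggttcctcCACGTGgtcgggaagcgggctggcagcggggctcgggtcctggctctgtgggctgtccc
NME1 (chr17:51153309-51153608, plus strand): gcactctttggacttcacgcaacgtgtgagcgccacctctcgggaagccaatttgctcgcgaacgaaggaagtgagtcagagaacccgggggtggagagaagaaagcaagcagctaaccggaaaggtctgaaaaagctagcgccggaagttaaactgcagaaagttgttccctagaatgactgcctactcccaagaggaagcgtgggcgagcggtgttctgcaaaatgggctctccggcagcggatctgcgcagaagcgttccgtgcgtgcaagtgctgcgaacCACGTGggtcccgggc
DHODH (chr16:72008494-72008793, plus strand): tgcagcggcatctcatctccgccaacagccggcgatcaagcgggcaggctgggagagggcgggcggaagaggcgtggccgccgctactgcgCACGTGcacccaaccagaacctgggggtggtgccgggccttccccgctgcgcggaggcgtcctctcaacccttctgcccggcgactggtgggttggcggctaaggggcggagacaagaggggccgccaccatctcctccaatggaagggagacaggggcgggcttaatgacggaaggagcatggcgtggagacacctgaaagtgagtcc
ATIC (chr2:215311809-215312108, plus strand): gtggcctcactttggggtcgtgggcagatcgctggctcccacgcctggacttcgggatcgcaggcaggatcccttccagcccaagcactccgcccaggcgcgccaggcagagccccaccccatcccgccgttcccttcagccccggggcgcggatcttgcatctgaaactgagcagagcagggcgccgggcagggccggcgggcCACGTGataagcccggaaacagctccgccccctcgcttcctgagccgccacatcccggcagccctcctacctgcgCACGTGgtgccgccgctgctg
The single CACGTG of PAICS starts 41 bases after the start site of the promoter printed here, and that of PPAT starts 182 bases before its own. Both are the same 6 bases of chromosome 4, from position 56435792. The other PAICS promoters on record hold no CACGTG. In DCTPP1 the E-box starts 9 bases before the start site, in DHODH 159 bases before it, and in NME1 35 bases after it. ATIC has 2 copies, 46 bases before and 30 bases after its start. A match in a promoter is a description of the sequence, and no binding was measured here.

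The comparison of each MYCN line with SH-EP in DMSO asked how the lines with exogenous MYCN differ before any drug. No line with an empty vector is among the groups, so MYCN cannot be told apart from the making of the lines. On FPKM as deposited, most of the 33 genes were higher in the MYCN lines, and IMPDH2 alone was lower in every line, whereas on the spike-in scale, described below, the mean over the 4 lines lay below SH-EP for all 33. With limma on log2(FPKM + 0.1), at a Benjamini-Hochberg adjusted p under 0.05 over the 11575 tested genes, 29 of 33 were higher with WT, where 31.6% of all tested genes were, and 1 was lower (22.6%). With T58A the counts were 27 higher (30.9% of tested genes) and 1 lower (23.3%). With S62A the counts were 29 higher (31% of tested genes) and 1 lower (23.4%). With T58A S62A the counts were 26 higher (31.2% of tested genes) and 1 lower (24.1%). The same 25 genes were higher in all 4 lines, as were 2218 of all tested genes (19.2%), and IMPDH2 was the 1 gene lower in all 4, with 1549 tested genes (13.4%). In 25 of 33 genes (75.8%) all 12 MYCN-line libraries lay above all 3 SH-EP libraries, against 21.8% of the tested genes, and in 1 gene (3.03%) they lay below, against 16.5%. The members' median log2 change was 0.57, 0.52, 0.54 and 0.52 with WT, T58A, S62A, and T58A S62A, beside 0.07, 0.05, 0.06 and 0.06 for all tested genes. For the mean of the 4 lines 28 members were higher (34.6% of tested genes) and 1 was lower (26.3%). These comparisons share the 3 SH-EP libraries.

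**Figure D1:**
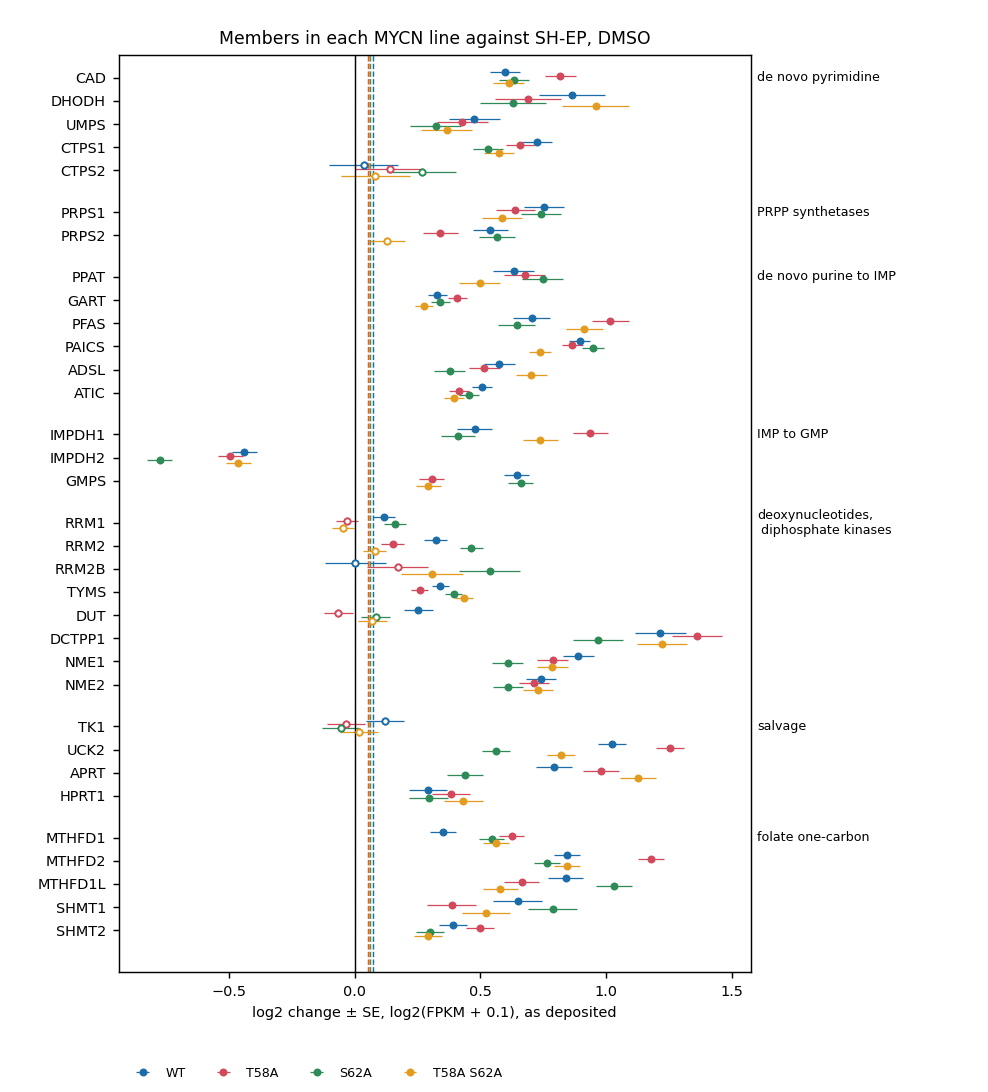
Log2 change ± SE (limma, n = 3 libraries per group) of each of the 33 genes in the 4 MYCN lines against SH-EP with DMSO, on log2(FPKM + 0.1) as deposited. Filled points passed an adjusted p under 0.05, open points did not, and the dashed lines are the medians of all tested genes in each line, between 0.05 and 0.07. All points except those of IMPDH2 and 5 of RRM1, DUT, and TK1 lie above 0, which holds on this scale only, since on the spike-in scale the means over the lines of all 33 genes are below 0.

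The size of the change against SH-EP depended on what the libraries were scaled to. Scaled to the ERCC spike-ins, which the authors added by cell number, the median tested gene shifted by -1.16, -0.88, -1.86 and -0.75 on the log2 scale with WT, T58A, S62A, and T58A S62A, and the mean change over the 4 lines was below 0 for all 33 genes and past the threshold for 32 (91.2% of tested genes, with 1.1% higher). On that scale 29, 17, 33 and 14 members were lower in the 4 lines, beside 88.5%, 77.6%, 95% and 69.7% of all tested genes. By line, the change was below 0 for 33, 28, 33 and 28 members with WT, T58A, S62A, and T58A S62A, and the values above 0 were those of PFAS, DCTPP1, APRT, and MTHFD2 with T58A and with T58A S62A, UCK2 with T58A, and DHODH with T58A S62A, up to 0.41 for DCTPP1 with T58A. By limma 0 were higher, at an adjusted or an unadjusted p under 0.05, beside 0.994%, 1.87%, 0.389% and 2.27%. The place of the genes among all others hardly depends on the scaling, because the factor of a library multiplies all its genes alike. The mean change of 30 of 33 members was above the median of all tested genes with FPKM as deposited. That of 30 was above it when scaled to the spike-ins, with IMPDH2, RRM1, and TK1 below it under both. The second count is therefore no separate support for the first. Changes given below for lines are on FPKM as deposited, and read against the median gene they are smaller by 0.05 to 0.07. Since the spike-ins were added by cell number, that scale is meant to follow RNA per cell. Whether the cell numbers were accurate cannot be read from the libraries and was not tested.

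In the pyrimidine pathway CAD, DHODH, UMPS, and CTPS1 were higher in all 4 MYCN lines as deposited and CTPS2 did not pass in any line (adjusted p from 0.108 to 0.855). On the spike-in scale the mean over the 4 lines lay below SH-EP and above the median gene for all 5, with DHODH at 0.14 with T58A S62A. CAD (chr2:27440237-27466811, plus strand, GRCh37), the enzyme of the first steps, stood at 22.1, 24.8 and 24.2 FPKM in the 3 SH-EP libraries, 35.4, 38.2 and 34.05 with WT, 41.02, 43.7 and 40.5 with T58A, 37.6, 37.6 and 35.1 with S62A, and 37.1, 34.5 and 36.9 with T58A S62A. No MYCN-line library reached down to the SH-EP range, and T58A was the highest group. The log2 change was 0.60, 0.82, 0.63 and 0.61 with WT, T58A, S62A, and T58A S62A, with a mean of 0.67 ± 0.05 (SE, adjusted p = 1.58e-11). DHODH (chr16:72042487-72061563, plus strand), which works on the inner mitochondrial membrane, read 6.03, 6.01 and 4.998 FPKM in the 3 SH-EP libraries, 11.1, 10.6 and 9.51 with WT, 10.8, 9.39 and 7.65 with T58A, 8.405, 8.21 and 9.92 with S62A, and 9.297, 11.7 and 12.5 with T58A S62A. These groups did not overlap with SH-EP either, but the libraries within T58A and T58A S62A were spread. Its mean change was 0.79 ± 0.10 (SE, adjusted p = 5.74e-07). CTPS1 (chr1:41444972-41478237, plus strand), the CTP synthetase of dividing cells, read 44.3, 48.04 and 42.6 FPKM in the 3 SH-EP libraries, 72.4, 78.03 and 72.5 with WT, 68.6, 69.9 and 74.5 with T58A, 67.3, 62.7 and 64.7 with S62A, and 64.4, 69.1 and 67.2 with T58A S62A. All 12 MYCN-line values were above those of SH-EP, with a mean change of 0.62 ± 0.05 (SE, adjusted p = 3.94e-11). UMPS, which makes UMP from orotate, changed by a smaller 0.40 ± 0.08 (SE, adjusted p = 0.000148).

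Both PRPP synthetases were higher, by 0.68 ± 0.06 (SE, adjusted p = 1.34e-09) for PRPS1 and 0.39 ± 0.06 (SE, adjusted p = 1.33e-06) for PRPS2 over the 4 lines as deposited, and both lay below SH-EP and above the median gene on the spike-in scale. PRPS1 passed in all 4 lines. PRPS2 passed in 3, and with T58A S62A its change was 0.13 ± 0.07 (SE, adjusted p = 0.123).

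All 6 enzymes from PRPP to IMP were higher in all 4 lines as deposited, while on the spike-in scale the mean over the 4 lines lay below SH-EP and above the median gene for all 6, with PFAS at 0.07 with T58A and 0.09 with T58A S62A. PAICS (chr4:57301907-57330744, plus strand), which carries out consecutive steps in the middle of the chain, read 105, 101 and 100.3 FPKM in the 3 SH-EP libraries, 194, 179.7 and 195 with WT, 186, 179.8 and 193 with T58A, 193, 202 and 195 with S62A, and 173, 181 and 158 with T58A S62A. SH-EP was the lowest group by a wide margin, and the MYCN lines overlapped with each other. Its changes were 0.89, 0.87, 0.95 and 0.74, with a mean of 0.86 ± 0.03 (SE, adjusted p = 1.83e-16). PFAS (chr17:8150936-8173809, plus strand), a glutamine-dependent synthase, read 9.18, 11.3 and 10.3 FPKM in the 3 SH-EP libraries, 16.5, 17.6 and 16.1 with WT, 19.1, 21.4 and 21.8 with T58A, 16.03, 16.5 and 15.5 with S62A, and 20.7, 17.6 and 19.7 with T58A S62A. Every MYCN-line library was above SH-EP, and the means of T58A and T58A S62A were the highest. The mean change was 0.82 ± 0.06 (SE, adjusted p = 1.36e-11). PPAT (chr4:57259528-57301781, minus strand), which catalyzes the committed first step, read 18.6, 18.9 and 18.02 FPKM in the 3 SH-EP libraries, 29.9, 26.4 and 30.2 with WT, 29.8, 27.8 and 31.4 with T58A, 31.4, 31.9 and 30.1 with S62A, and 23.5, 30.6 and 24.9 with T58A S62A. No MYCN-line library overlapped with SH-EP, and its mean change was 0.64 ± 0.06 (SE, adjusted p = 7.01e-09). The remaining enzymes changed less: ADSL by 0.54, ATIC by 0.44, and GART by 0.34 on the log2 scale over the 4 lines. ADSL overlaps SGSM3 on the same strand in the annotation, so fragments of the overlap cannot be told apart.

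The step from IMP toward GMP separated the isoenzymes. IMPDH2 (chr3:49061758-49066880, minus strand), the isoform that dividing cells usually rely on, read 184, 184 and 182 FPKM in the 3 SH-EP libraries, 132, 147 and 128 with WT, 134, 124 and 133 with T58A, 104, 106 and 112 with S62A, and 127, 134 and 139 with T58A S62A. The 3 SH-EP libraries were nearly identical and lay above all others, and S62A was the lowest group. Its changes were -0.44, -0.49, -0.77 and -0.46, with a mean of -0.54 ± 0.04 (SE, adjusted p = 2.34e-11), and it was below SH-EP and below the median gene on both scales. IMPDH1 (chr7:128032331-128050040, minus strand), the second isoform, read 33.4, 36.5 and 39.03 FPKM in the 3 SH-EP libraries, 48.6, 56.1 and 47.3 with WT, 72.5, 72.6 and 63.7 with T58A, 47.5, 46.4 and 50.9 with S62A, and 61.5, 57.8 and 62.5 with T58A S62A. It was above SH-EP in all 12 libraries as deposited, by 0.64 ± 0.05 (SE, adjusted p = 4.08e-10), and below SH-EP but above the median gene on the spike-in scale. GMPS, which makes GMP, changed by 0.48 ± 0.04 (SE, adjusted p = 2.17e-10) as deposited, with larger values for WT and S62A (0.64 and 0.66) than with T58A and T58A S62A (0.31 and 0.29), and it too lay below SH-EP when scaled to the spike-ins. The difference from WT was -0.34 ± 0.05 (SE, adjusted p = 2.28e-05) with T58A and -0.35 ± 0.05 (SE, adjusted p = 1.07e-05) with T58A S62A.

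Among the 8 genes of deoxynucleotides and diphosphate kinases, 7, 5, 7 and 5 were higher with WT, T58A, S62A, and T58A S62A as deposited, and on the spike-in scale the mean over the 4 lines was below SH-EP for all 8, with DCTPP1 at 0.41 with T58A and 0.39 with T58A S62A. DCTPP1 (chr16:30434936-30441351, minus strand), a pyrophosphatase that removes modified deoxycytidine triphosphates, had the largest mean change over the 4 lines of the 33 genes. It read 42.1, 45.01 and 45.8 FPKM in the 3 SH-EP libraries, 101, 121 and 89.04 with WT, 112, 116 and 113 with T58A, 86.8, 87.6 and 85.6 with S62A, and 113, 87.2 and 113 with T58A S62A. Its lowest MYCN-line library was far above the highest SH-EP library, and the WT and T58A S62A libraries were the most spread. The change was 1.22, 1.36, 0.97 and 1.22, with a mean of 1.19 ± 0.08 (SE, adjusted p = 4.58e-12), and with the spike-ins it was -0.06 ± 0.16, the 1 member that did not pass on that scale (adjusted p = 0.749). NME2 (chr17:49242796-49249105, plus strand), a nucleoside diphosphate kinase and the most abundant member, read 885, 868 and 838 FPKM in the 3 SH-EP libraries, 1397, 1617 and 1332 with WT, 1461, 1369 and 1417 with T58A, 1211, 1392 and 1356 with S62A, and 1479.7, 1443 and 1375 with T58A S62A. The SH-EP values were the lowest, and those of the MYCN lines overlapped. The mean change was 0.70 ± 0.05 (SE, adjusted p = 4.76e-12) as deposited, and that of NME1 was 0.77 ± 0.05 (SE, adjusted p = 1.82e-12). TYMS (chr18:657653-673578, plus strand), which makes thymidylate, read 143, 138 and 138 FPKM in the 3 SH-EP libraries, 177, 183 and 169.9 with WT, 165, 171 and 165 with T58A, 174, 189 and 188 with S62A, and 186, 190.3 and 189.6 with T58A S62A. SH-EP was lowest without overlap, and the change was 0.36 ± 0.03 (SE, adjusted p = 5.01e-11).

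Of the subunits of ribonucleotide reductase, RRM2 was higher than SH-EP in 3 of 4 lines as deposited, and RRM1 and RRM2B in 2 each. RRM2, the subunit that rises in S phase, read 112, 113 and 109 FPKM in the 3 SH-EP libraries, 138, 138 and 141 with WT, 117, 124 and 129 with T58A, 152, 160 and 147 with S62A, and 119, 124 and 109 with T58A S62A. The T58A S62A libraries overlapped with SH-EP, whereas the other lines lay above it as deposited. Its changes were 0.32, 0.15, 0.46 and 0.08, of which that with T58A S62A did not pass (adjusted p = 0.15), and on the spike-in scale its mean was below SH-EP. RRM1 passed with WT (0.12) and S62A (0.16), and it was lower than WT with T58A (-0.15, adjusted p = 0.0154) and T58A S62A (-0.16, adjusted p = 0.0081). RRM2B, the p53-inducible subunit, passed with S62A (0.54) and T58A S62A (0.31). DUT, which hydrolyzes dUTP, passed with WT (0.25). In DMSO, 14 of 20 other S-phase genes were higher in all 4 lines as deposited, where 19.2% of all tested genes were, and their summed level was 888 to 916 FPKM in SH-EP and 1176 to 1355 FPKM in the MYCN lines. CCNE1, a cyclin of the entry into S phase, changed most, by 1.51 ± 0.11 (SE, adjusted p = 1.05e-11), followed by UHRF1, which keeps DNA methylation through replication, at 0.78 ± 0.17 (SE, adjusted p = 0.000472), and on the spike-in scale these stood at 0.28 and -0.47. The share of cells in S phase was not measured, and its part in these differences was not tested.

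Of the 4 salvage enzymes, UCK2, APRT, and HPRT1 were higher in all 4 lines as deposited and TK1 in none, and on the spike-in scale the mean over the 4 lines was below SH-EP for all 4, with UCK2 at 0.30 with T58A and APRT at 0.03 with T58A and 0.29 with T58A S62A. UCK2, which phosphorylates uridine and cytidine, ranged from 0.56 with S62A to 1.25 with T58A. APRT, which recycles adenine, ranged from 0.44 with S62A to 1.12 with T58A S62A. HPRT1, which recycles hypoxanthine and guanine, changed by 0.35 ± 0.06 (SE, adjusted p = 2.57e-05). TK1, the thymidine kinase of S phase, read 128, 131 and 130.3 FPKM in the 3 SH-EP libraries, 138, 161 and 126 with WT, 125, 130.5 and 124 with T58A, 119, 129 and 126 with S62A, and 144, 113 and 139 with T58A S62A. The SH-EP libraries sat inside the range of the MYCN lines, and the mean change was 0.01 ± 0.06 (SE, adjusted p = 0.882).

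All 5 folate enzymes were higher in all 4 lines as deposited, while on the spike-in scale the mean over the 4 lines lay below SH-EP and above the median gene for all 5, with MTHFD2 at 0.23 with T58A and 0.01 with T58A S62A. MTHFD2 (chr2:74413299-74444692, plus strand), the mitochondrial dehydrogenase that is abundant in embryonic and tumor cells, read 76.6, 73.9 and 73.4 FPKM in the 3 SH-EP libraries, 135, 129 and 138 with WT, 171, 161 and 175 with T58A, 126, 126 and 128 with S62A, and 128, 147 and 128 with T58A S62A. SH-EP was lowest without overlap, and T58A stood above the other lines. The changes were 0.84, 1.18, 0.76 and 0.84, with a mean of 0.91 ± 0.04 (SE, adjusted p = 3.02e-15). SHMT2, which splits serine in mitochondria, read 93.5, 98 and 92.1 FPKM in the 3 SH-EP libraries, 119, 140.2 and 114 with WT, 134, 133 and 134 with T58A, 111, 117 and 122 with S62A, and 117, 111 and 119 with T58A S62A. These values were also free of overlap with SH-EP, with a smaller mean change of 0.37 ± 0.04 (SE, adjusted p = 1.02e-07). MTHFD1L, which completes the mitochondrial branch by releasing formate, changed by 0.78, the cytosolic SHMT1 by 0.59, and the cytosolic MTHFD1 by 0.52 over the 4 lines.

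**Figure D2:**
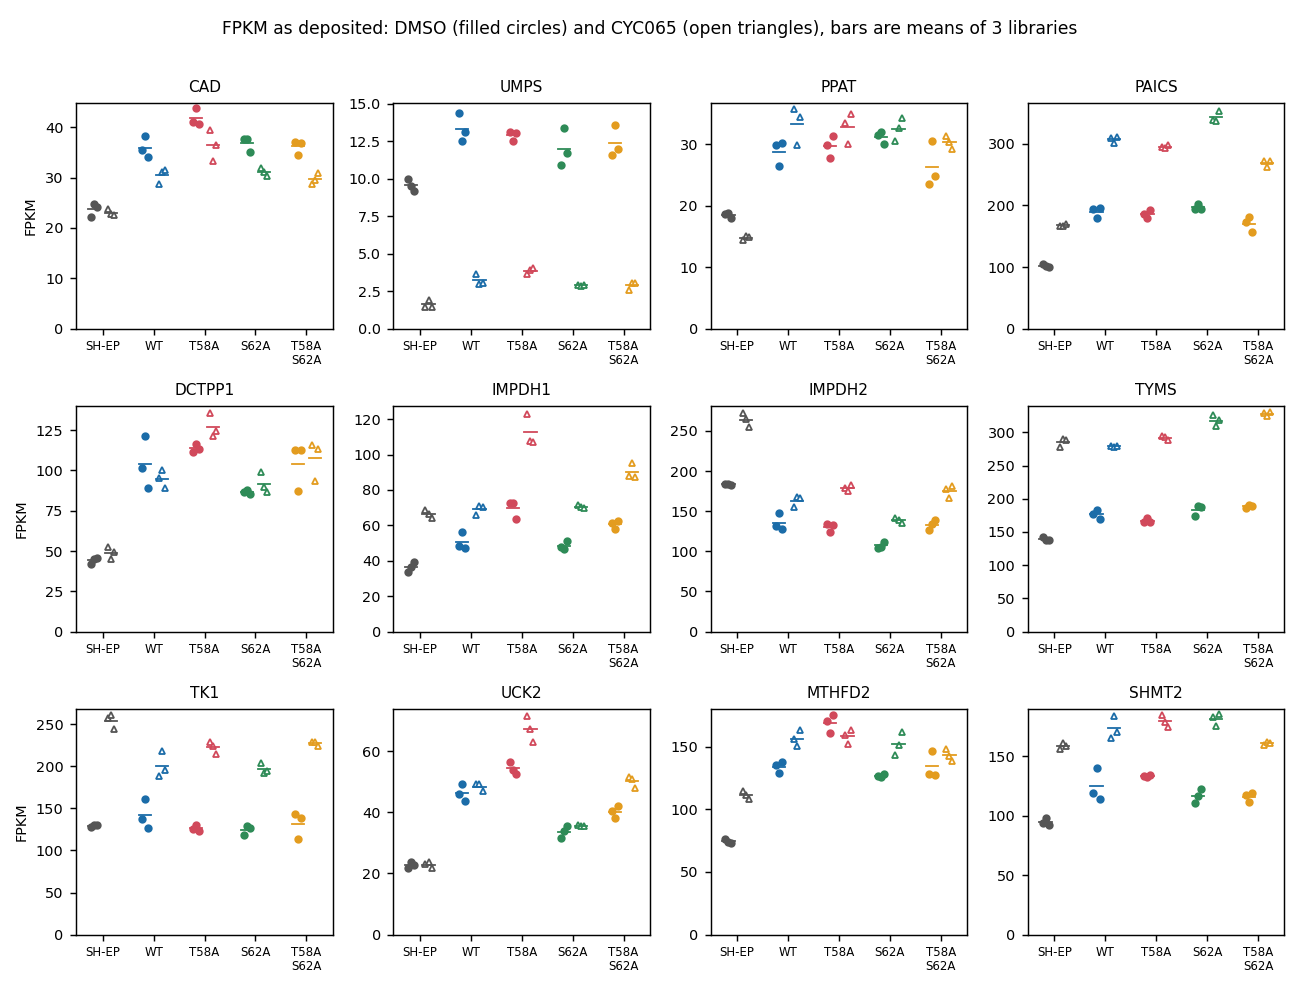
FPKM as deposited of 12 of the 33 genes in each library, by line, with DMSO (filled circles) or CYC065 (open triangles), and with bars at the means of 3 libraries. With DMSO, SH-EP is the lowest group for CAD, PPAT, PAICS, DCTPP1, MTHFD2, and others, the highest for IMPDH2, and within the range of the MYCN lines for TK1. UMPS with CYC065 lies far below DMSO in every line. Directions refer to FPKM as deposited. On the spike-in scale the mean change over the 4 MYCN lines is below 0 for each of these genes, and the CYC065 change is below 0 in each line.

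The mutant lines were compared with the WT line. Each mutation came with its own line, and the MYCN level differed between lines, as given above. Mutation, MYCN level, and line therefore cannot be told apart in these comparisons. On FPKM as deposited, differences among the members were small and went both ways. Against WT, 6 of 33 were higher and 5 lower with T58A, where 10.7% and 13% of all tested genes were. With S62A they were 3 and 7 (all tested genes 10.1% and 14%), and with T58A S62A 5 and 9 (all tested genes 9.43% and 14.2%). None of these changes reached 1.5-fold. The median gene differed from WT by -0.02, -0.02 and -0.02 as deposited, but by 0.28, -0.71 and 0.39 on the spike-in scale with T58A, S62A, and T58A S62A. On that scale 3 members were higher with T58A (8.13% of tested genes), 31 were lower with S62A (74.8%), and 9 were higher with T58A S62A (23.2%), while 0 passed in the other direction by limma, also at an unadjusted p under 0.05 (0.458%, 0.181% and 1.02% of tested genes). IMPDH1 had the largest change with T58A, 0.46 ± 0.07 (SE, adjusted p = 3.47e-05), and the T58A libraries of IMPDH1 given above lay over those of WT without overlap. RRM2B had the largest with S62A. It read 8.699, 6.99 and 7.42 FPKM in the 3 SH-EP libraries, 8.74, 6.103 and 8.48 with WT, 9.04, 8.25 and 8.66 with T58A, 12.3, 10.4 and 10.9 with S62A, and 8.57, 10.9 and 9.24 with T58A S62A. The S62A libraries were above all 3 WT libraries, with a change of 0.53 ± 0.12 (SE, adjusted p = 0.00218), which on the spike-in scale was -0.16 ± 0.18. PRPS2 had the largest with T58A S62A, -0.41 ± 0.07 (SE, adjusted p = 0.000117). It read 13.4, 11.8 and 12.9 FPKM in the 3 SH-EP libraries, 18.02, 18.9 and 18.4 with WT, 14.8, 17.1 and 16.3 with T58A, 18.2, 19.4 and 18.9 with S62A, and 12.97, 15.6 and 13.2 with T58A S62A. The T58A S62A libraries were below those of WT and overlapped with SH-EP, and on the spike-in scale the change was 0.01 ± 0.20. MTHFD1 was higher than WT in all 3 mutant lines as deposited, by 0.27, 0.19 and 0.21, and DUT was lower in all 3, with changes of -0.32, -0.17 and -0.18, which on the spike-in scale became 0.58, -0.50 and 0.63 for MTHFD1 and -0.02, -0.87 and 0.24 for DUT. The 2 genes were singled out after their values were seen. Without library a of WT or library a of T58A the count of lower members with T58A was 3, without library b of WT that with S62A was 4, and without library c of WT or library a or c of T58A S62A the count of higher members with T58A S62A was 3.

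CYC065 inhibits CDK9, the kinase that releases RNA polymerase II into elongation, and was compared with DMSO in each line on FPKM scaled to the spike-ins. UMPS fell most of the 33 genes, followed by DHODH, CAD, GMPS, and PFAS, whereas NME2, TYMS, DUT, NME1, and HPRT1 fell least. All 33 genes were lower on average over the 5 lines (mean log2 change from -3.37 for UMPS to -0.42 for NME2), beside a median gene at -1.20, and the fall passed for all 33, as for 94.4% of the tested genes, while 1.59% were higher. As deposited, without the spike-ins, 28 of 33 mean changes were above 0, and 24, 23, 24, 22 and 25 members were higher in SH-EP, then WT, T58A, S62A, and T58A S62A (42.7%, 37%, 38.1%, 38.8% and 38.6% of tested genes). The members lower as deposited were 4, 3, 2, 5 and 4 (33.5%, 34.2%, 33.3%, 34.6% and 34.2%). When libraries were instead set to a common median, 27, 25, 28, 28 and 26 were higher (48%, 45.2%, 46.6%, 45.9% and 45.5% of tested genes) and 4, 2, 1, 1 and 2 lower (29.7%, 28.3%, 27.3%, 29% and 28.8%). Scaled to the spike-ins, 25 of 33 in SH-EP were lower, where 75.7% of all tested genes were, and with WT 33 (93.7%), with T58A 29 (84.2%), with S62A 33 (90.2%), and with T58A S62A 25 (76.3%). No member was higher in any line by limma, at an adjusted p under 0.05 or at an unadjusted p under 0.05 (0 of 33 in each), where 0.907%, 0.769%, 1.25%, 0.968% and 1.85% of all tested genes were in SH-EP, then WT, T58A, S62A, and T58A S62A. In all 5 lines together 24 of 33 members were lower, as were 69.4% of the tested genes, so the count is near that of the background. Relative to the median of all tested genes, the mean change of 24 of 33 members was above it.

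**Figure D3:**
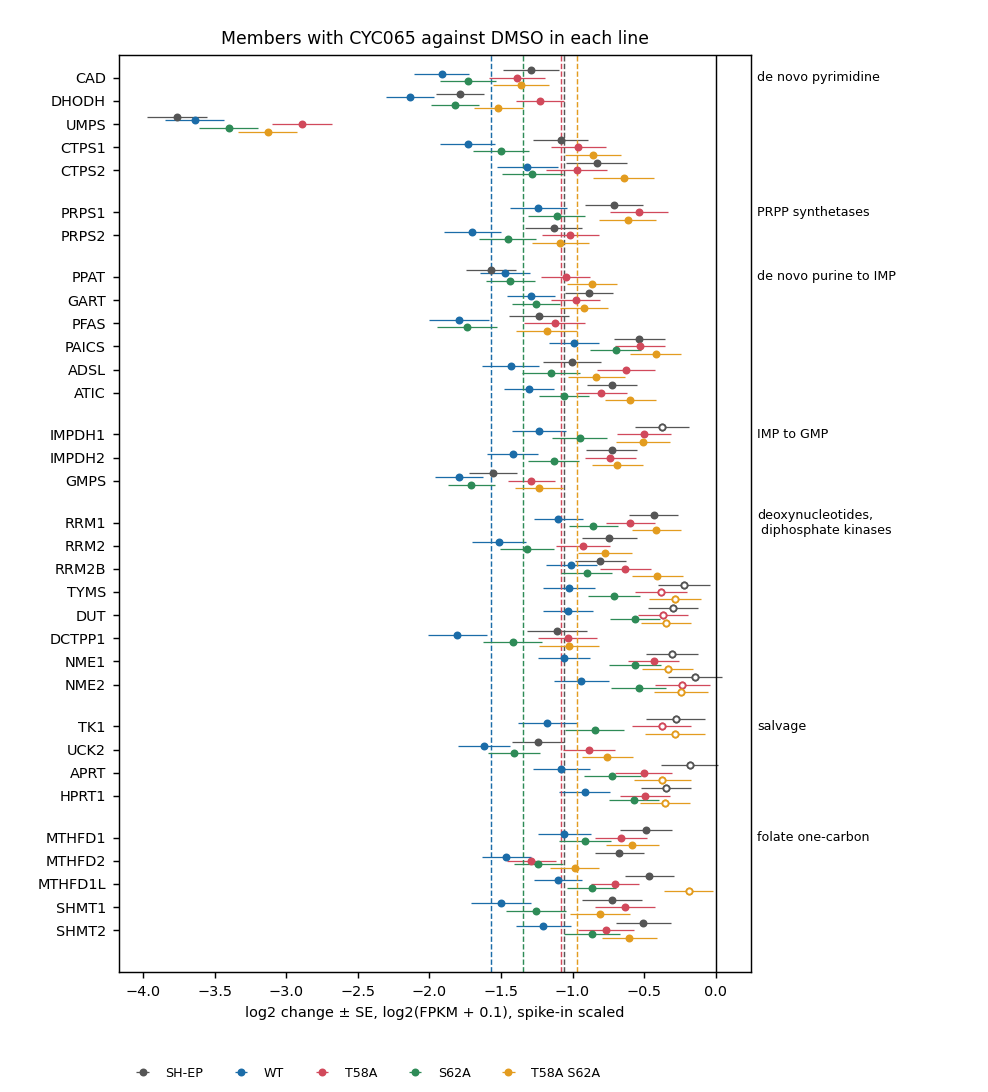
Log2 change ± SE (limma, n = 3 libraries per group) of each of the 33 genes with CYC065 against DMSO in the 5 lines, on spike-in scaled log2(FPKM + 0.1). Filled points passed an adjusted p under 0.05, open points did not, and dashed lines are the medians of all tested genes per line, which range from -1.57 with WT to -0.97 with T58A S62A. UMPS lies far to the left of these lines, and TYMS, DUT, NME1, and NME2 to their right, while as deposited most of the genes lie above 0.

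By role, the mean change over the 5 lines had a median of -1.54 (-0.34 against the median gene) in the pyrimidine pathway, -1.06 (0.14 against the median gene) for the PRPP synthetases, -1.04 (0.16 against the median gene) from PRPP to IMP, -0.94 (0.25 against the median gene) from IMP to GMP, -0.79 (0.41 against the median gene) in the folate group, -0.61 (0.59 against the median gene) for deoxynucleotides and diphosphate kinases, and -0.58 (0.61 against the median gene) for salvage. The pyrimidine pathway alone had a median below that of all genes. The difference between roles was not tested.

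UMPS (chr3:124449280-124468120, plus strand), the bifunctional last enzyme of UMP synthesis, had the largest fall. Spike-in scaled FPKM of UMPS were 32.9, 28.96 and 29.6 with DMSO and 2.08, 2.76 and 1.71 with CYC065 in SH-EP, and 16.2, 20.5 and 16.8 with DMSO and 1.52, 1.401 and 1.101 with CYC065 in WT. In the mutant lines they were 15.7, 24.2 and 24.98 with DMSO and 2.54, 2.85 and 2.94 with CYC065 in T58A, 8.95, 12.5 and 8.48 with DMSO and 0.923, 0.744 and 0.858 with CYC065 in S62A, and 23.3, 24.5 and 18.8 with DMSO and 1.796, 2.94 and 2.71 with CYC065 in T58A S62A. Every CYC065 library was below every DMSO library of its line, and no CYC065 library reached 3 FPKM. The log2 change in SH-EP, then WT, T58A, S62A, and T58A S62A was -3.76, -3.64, -2.89, -3.40 and -3.13, with a mean of -3.37 ± 0.09 (SE, adjusted p = 3.63e-22). As deposited the mean change was -2.06 ± 0.05, so UMPS fell under both scalings. On the spike-in scale 3.27% of the tested genes had a lower mean change than UMPS.

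DHODH, the step before UMPS, changed by -1.79, -2.14, -1.23, -1.82 and -1.52 in SH-EP, then WT, T58A, S62A, and T58A S62A. The levels of DHODH, in spike-in scaled FPKM, were 19.8, 18.3 and 16.1 with DMSO and 5.23, 5.19 and 5.02 with CYC065 in SH-EP, and 12.5, 17.4 and 12.2 with DMSO and 3.18, 3.97 and 2.28 with CYC065 in WT. Those of the mutant lines were 12.9, 18.2 and 14.6 with DMSO and 6.04, 6.15 and 7.01 with CYC065 in T58A, 6.89, 7.701 and 7.16 with DMSO and 2.05, 1.76 and 2.13 with CYC065 in S62A, and 18.7, 21.03 and 19.8 with DMSO and 6.48, 7.39 and 6.71 with CYC065 in T58A S62A. The treatments did not overlap in any line, and S62A had the lowest values under both. The mean change was -1.70 ± 0.08 (SE, adjusted p = 6.69e-18), and as deposited -0.38 ± 0.06. CAD, the first enzyme of the pathway, followed with -1.54 ± 0.09 (SE, adjusted p = 1.29e-15). CAD stood at 72.4, 75.5 and 77.8 with DMSO and 33.7, 32.6 and 26.3 with CYC065 in SH-EP, and 39.8, 62.8 and 43.5 with DMSO and 12.1, 14.6 and 11.3 with CYC065 in WT, in spike-in scaled FPKM. The mutant lines had 49.2, 84.7 and 77.5 with DMSO and 27.6, 24.3 and 26.5 with CYC065 in T58A, 30.8, 35.2 and 25.3 with DMSO and 10.1, 8.09 and 9.01 with CYC065 in S62A, and 74.6, 62.3 and 58.1 with DMSO and 20.03, 28.7 and 27.6 with CYC065 in T58A S62A. All CYC065 libraries were below the DMSO libraries of their line, and the T58A and WT lines had a wide spread with DMSO. As deposited the change of CAD was -0.20 ± 0.03. The remaining pyrimidine genes stood near the median gene, with -1.23 for CTPS1 and -1.01 for CTPS2.

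GMPS, the last step to GMP, changed by -1.52 ± 0.07 (SE, adjusted p = 5.61e-17). Spike-in scaled FPKM of GMPS were 236, 220.2 and 226 with DMSO and 79.4, 82.2 and 70.3 with CYC065 in SH-EP, and 127, 174 and 149.9 with DMSO and 43.9, 47.8 and 37.4 with CYC065 in WT. In the mutant lines they were 108, 159 and 178 with DMSO and 60.4, 60.8 and 57.2 with CYC065 in T58A, 91.3, 105 and 83.2 with DMSO and 30.5, 25.8 and 28.9 with CYC065 in S62A, and 172, 169 and 131 with DMSO and 55.8, 74.8 and 70.3 with CYC065 in T58A S62A. No line showed overlap between the treatments, and as deposited the change was -0.18 ± 0.02. With libraries at a common median, where the median of the gene changes was itself 0.26, GMPS and CAD stood at -0.01 and -0.04 and did not pass. PFAS changed by -1.41 ± 0.09 (SE, adjusted p = 6.15e-14). The levels of PFAS, in spike-in scaled FPKM, were 30.2, 34.3 and 33.02 with DMSO and 15.4, 14.5 and 11.7 with CYC065 in SH-EP, and 18.5, 28.9 and 20.5 with DMSO and 6.21, 7.75 and 5.31 with CYC065 in WT. Those of the mutant lines were 22.9, 41.5 and 41.7 with DMSO and 15.05, 16.3 and 15.4 with CYC065 in T58A, 13.1, 15.4 and 11.2 with DMSO and 4.49, 3.41 and 3.79 with CYC065 in S62A, and 41.6, 31.7 and 31.03 with DMSO and 12.1, 17.8 and 16.2 with CYC065 in T58A S62A. The treatments were again separate in all 5 lines, and PFAS kept its direction as deposited (-0.08 ± 0.03) but not at a common median (0.08). PPAT changed by -1.28 and its neighbor PAICS by -0.63 on average.

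At the other end, NME2 was lower with WT and S62A (-0.94 and -0.54) and did not pass in SH-EP, T58A, and T58A S62A (adjusted p = 0.484, 0.249 and 0.242). NME2 stood at 2907, 2646 and 2696 with DMSO and 2724, 2594 and 2170.2 with CYC065 in SH-EP, and 1573, 2659.7 and 1702 with DMSO and 1006, 1160.0 and 866 with CYC065 in WT, in spike-in scaled FPKM. The mutant lines had 1753, 2652 and 2709 with DMSO and 2012, 2046 and 1885 with CYC065 in T58A, 993, 1305 and 979 with DMSO and 834, 654 and 759 with CYC065 in S62A, and 2973, 2601 and 2167 with DMSO and 1842, 2408 and 2287 with CYC065 in T58A S62A. The treatments overlapped in SH-EP, T58A, and T58A S62A. The mean change was -0.42 ± 0.09 (SE, adjusted p = 4.52e-05), and as deposited 0.92 ± 0.03. TYMS had a mean change of -0.52 ± 0.08 (SE, adjusted p = 9.41e-07). Spike-in scaled FPKM of TYMS were 469.6, 419 and 444 with DMSO and 396, 417 and 337 with CYC065 in SH-EP, and 199.6, 301 and 217 with DMSO and 118, 129.9 and 101 with CYC065 in WT. In the mutant lines they were 198, 331 and 316 with DMSO and 207, 213 and 210.4 with CYC065 in T58A, 142, 177 and 136 with DMSO and 103, 80.3 and 94.7 with CYC065 in S62A, and 373, 343 and 299 with DMSO and 229, 315 and 295 with CYC065 in T58A S62A. The treatments were separate in SH-EP, WT, and S62A and overlapped in T58A and T58A S62A. As deposited the change of TYMS was 0.82 ± 0.02.

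DUT changed by -0.52 ± 0.08 (SE, adjusted p = 5.12e-07) on average. The levels of DUT, in spike-in scaled FPKM, were 226, 211 and 224 with DMSO and 184, 197 and 157 with CYC065 in SH-EP, and 86.9, 142 and 107 with DMSO and 54.3, 60.9 and 46.8 with CYC065 in WT. Those of the mutant lines were 84.3, 125 and 122 with DMSO and 77.2, 89.03 and 86.3 with CYC065 in T58A, 59.99, 61.7 and 58.9 with DMSO and 45.01, 35.96 and 41.8 with CYC065 in S62A, and 146, 133 and 112 with DMSO and 82.6, 114 and 113 with CYC065 in T58A S62A. CYC065 libraries lay below all DMSO libraries in SH-EP, WT, and S62A, with overlap in T58A and T58A S62A. HPRT1 changed by -0.54 ± 0.08 (SE, adjusted p = 3.64e-07). HPRT1 stood at 208, 172 and 183 with DMSO and 156, 158 and 128 with CYC065 in SH-EP, and 80.03, 117 and 94.8 with DMSO and 51.5, 56.5 and 45.1 with CYC065 in WT, in spike-in scaled FPKM. The mutant lines had 99.7, 136 and 149 with DMSO and 78.95, 88.9 and 102 with CYC065 in T58A, 57.2, 71.5 and 51.02 with DMSO and 39.9, 37.2 and 42.8 with CYC065 in S62A, and 148, 162 and 119 with DMSO and 92.3, 124 and 119.7 with CYC065 in T58A S62A. Separate ranges were found in SH-EP, WT, and S62A, and overlapping ones in T58A and T58A S62A. NME1 changed by -0.54 ± 0.08 (SE, adjusted p = 5.26e-07). Spike-in scaled FPKM of NME1 were 1333, 1282 and 1288 with DMSO and 1119, 1106 and 944 with CYC065 in SH-EP, and 819, 1416 and 886 with DMSO and 467, 569.8 and 425 with CYC065 in WT. In the mutant lines they were 873, 1349 and 1327 with DMSO and 888, 889 and 803 with CYC065 in T58A, 487, 575 and 478 with DMSO and 379.7, 311 and 352 with CYC065 in S62A, and 1420.1, 1237 and 1136 with DMSO and 863, 1109 and 1037 with CYC065 in T58A S62A. Here T58A showed overlap and SH-EP, WT, S62A, and T58A S62A did not. As deposited DUT, HPRT1, and NME1 changed by 0.82, 0.80 and 0.80.

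Further genes lay between these ends. Over the 5 lines CTPS1 changed by -1.23, RRM2 by -1.05, IMPDH2 by -0.94, IMPDH1 by -0.71, MTHFD2 by -1.13, and SHMT2 by -0.79 when scaled to the spike-ins, and by 0.11, 0.29, 0.40, 0.63, 0.21 and 0.55 as deposited. The spike-in factors themselves differed within groups. With DMSO the 3 factors of T58A, on the log2 scale, were 0.263, 0.954 and 0.935, and without its library a, b, or c the number of members lower with T58A was 33, 24, or 23, beside 29 with all libraries.

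An interaction term on spike-in scaled FPKM compared the CYC065 response of each MYCN line with that of SH-EP. With WT, 9 of 33 members had a lower response, that is a larger fall, than in SH-EP (IMPDH1, RRM2, TYMS, DUT, NME1, NME2, TK1, APRT, and MTHFD2), where 16.3% of all tested genes did, and 0 had a higher one (limma; 0 also at an unadjusted p under 0.05), where 1.89% did. Their differences lay between -0.73 and -0.90, with adjusted p from 0.0362 to 0.0469, beside a median of -0.52 for all tested genes. With T58A, S62A, and T58A S62A 0 members passed in either direction by limma, and at an unadjusted p under 0.05 there were 3 higher and 1 lower, 0 higher and 3 lower, and 2 higher and 0 lower. Of all tested genes 2.28% were higher and 0.311% lower with T58A, 3.08% and 1.87% with S62A, and 5.21% and 0.199% with T58A S62A. The count with WT rested on single libraries. It was 0 without library a or b of SH-EP with CYC065, without library a, b, or c of SH-EP with DMSO, without library a or c of WT with CYC065, and without library b of WT with DMSO, and it was 15, 16 and 20 without library c of SH-EP with CYC065, library b of WT with CYC065, and library a of WT with DMSO. On FPKM as deposited 3 members had a higher (10.4% of tested genes) and 13 a lower response with WT (18.1%).

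A ratio of 2 genes within a library does not depend on how the library is scaled, and 8 pairs were compared in this way with exact two-sided permutation tests, adjusted over the 8 pairs. The IMPDH2/IMPDH1 ratio was 5.51, 5.04 and 4.67 in SH-EP with DMSO, 2.72, 2.62 and 2.696 with WT, 1.85, 1.71 and 2.08 with T58A, 2.19, 2.28 and 2.201 with S62A, and 2.06, 2.32 and 2.22 with T58A S62A. All 12 MYCN-line libraries were below all 3 of SH-EP, a difference of -1.18 on the log2 scale (exact permutation p = 0.0022, adjusted p = 0.0044), and 0.0022 is the smallest p that this design can give. The test against SH-EP permutes libraries and takes no account of which MYCN line they come from. Its p-values therefore do not measure the spread between lines, here and for the pairs that follow. The CTPS1/CTPS2 ratio was higher than in SH-EP by 0.49 and the PRPS1/PRPS2 ratio by 0.29, while the PPAT/PAICS ratio was different by -0.22, each with the same exact p and adjusted p. The PPAT/PAICS ratio read 0.177, 0.187 and 0.1797 in SH-EP and 0.154, 0.147 and 0.154 with WT. RRM2/RRM2B did not pass (exact permutation p = 1), and neither did SHMT2/SHMT1, which differed by -0.22 (exact permutation p = 0.171, adjusted p = 0.229), MTHFD2/MTHFD1L, by 0.13 (exact permutation p = 0.488, adjusted p = 0.558), or NME1/NME2, by 0.07 (exact permutation p = 0.163, adjusted p = 0.229). Within 1 line, 3 libraries against 3 cannot give an exact p below 0.1, so single lines were not tested for ratios.

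With CYC065, permuted within each line over 3200000 arrangements, all 8 ratios differed from DMSO. The PPAT/PAICS ratio moved most, by -0.65 over the 5 lines (exact permutation p = 6.25e-07, the smallest possible, adjusted p = 1.67e-06). It read 0.0865, 0.0897 and 0.0878 in SH-EP, 0.115, 0.0992 and 0.1105 with WT, 0.114, 0.102 and 0.117 with T58A, 0.0902, 0.0964 and 0.0967 with S62A, and 0.115, 0.116 and 0.107 with T58A S62A. The difference was -1.04 in SH-EP and between -0.74 and -0.45 in the MYCN lines. The promoters printed above for these genes hold the same copy of the E-box, and its part in this ratio was not tested. MTHFD2/MTHFD1L changed by -0.46 and PRPS1/PRPS2 by 0.44, both at the smallest p. RRM2/RRM2B changed by -0.29 (exact permutation p = 9.69e-05), IMPDH2/IMPDH1 by -0.23 (exact permutation p = 1.88e-06), SHMT2/SHMT1 by 0.20 (exact permutation p = 0.00108), CTPS1/CTPS2 by -0.19 (exact permutation p = 0.00691), and NME1/NME2 by -0.12 (exact permutation p = 2.38e-05). Adjusted over the 8 pairs the largest p was 0.00691. The direction was shared by all 5 lines for 5 pairs. RRM2/RRM2B went the other way in SH-EP (0.07), SHMT2/SHMT1 in T58A (-0.13), and CTPS1/CTPS2 in T58A (0.03).

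**Figure D4:**
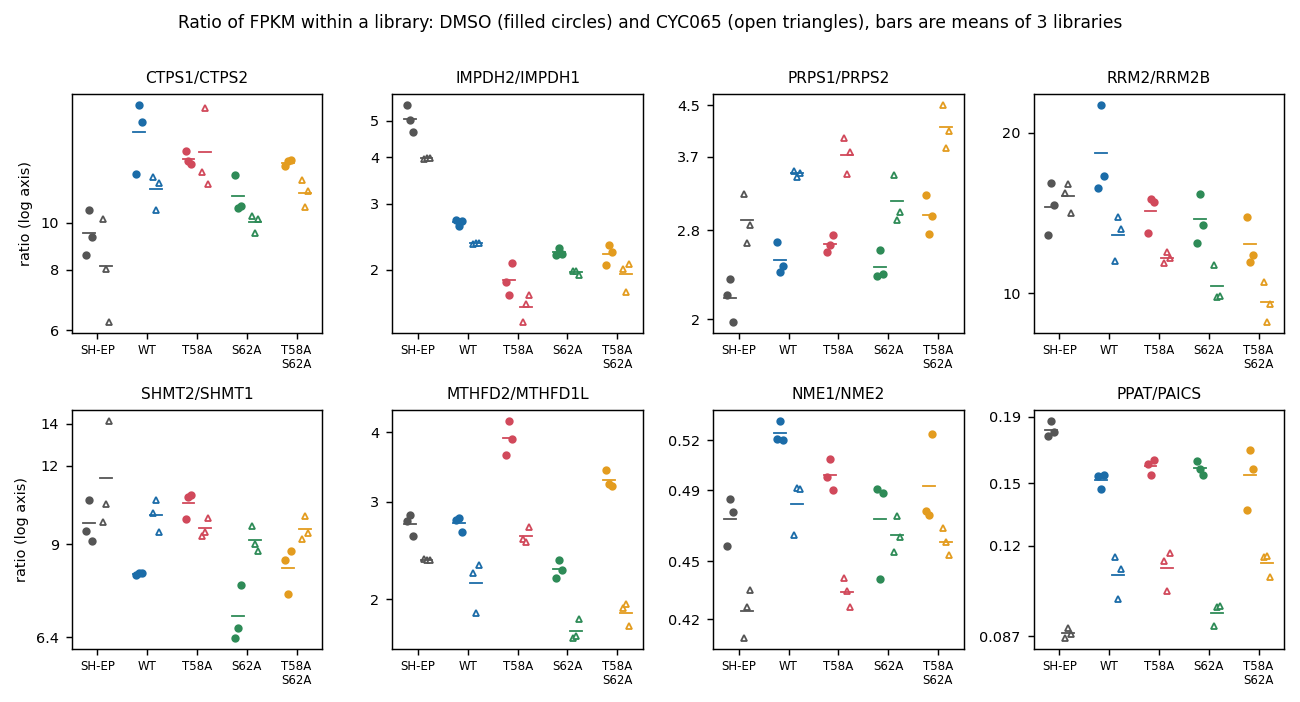
Ratio of the FPKM of 2 genes within a library, on a log axis, for 8 pairs in the 5 lines, with DMSO (filled circles) or CYC065 (open triangles), and with bars at the means of 3 libraries. The IMPDH2/IMPDH1 ratio of SH-EP with DMSO, 4.67 to 5.51, lies above all MYCN lines, and the PPAT/PAICS ratio is lower with CYC065 in every line. Ratios do not change with the scaling.

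NME1 and NME2 are neighbors on chromosome 17, and the table holds a separate row for their read-through transcript, NME1-NME2, which overlaps both on the same strand. Cufflinks divides fragments among overlapping transcripts, so the 3 rows cannot be fully told apart. With DMSO the read-through row stood at 5.105, 1.72 and 9.43 FPKM in SH-EP, 3.07, 3.96 and 6.4 with WT, 8.51, 9.06 and 7.89 with T58A, 5.43, 8.81 and 3.64 with S62A, and 2.87, 12.9 and 8.32 with T58A S62A. With CYC065 it stood at 61.9, 72.8 and 57.2 FPKM in SH-EP, 69.2, 79.5 and 65.7 with WT, 97.5, 97.8 and 69.6 with T58A, 90.03, 67.7 and 103 with S62A, and 114, 133 and 122 with T58A S62A. Every CYC065 library was far above every DMSO library, while the DMSO values were low and varied within groups. Scaled to the spike-ins, the mean change was 2.52 ± 0.22 (SE, adjusted p = 1.25e-11) and higher in all 5 lines, and as deposited it was 3.86 ± 0.20. Of the 11575 tested genes, 53 had a larger mean change on the spike-in scale. As a share of the summed FPKM of the 3 rows it was 0.131% to 0.756% with DMSO (median 0.372%) and 1.79% to 3.56% with CYC065 (median 2.29%), a ratio that does not depend on scaling. The row is no member of the list and was singled out after its values were seen.

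**Figure D5:**
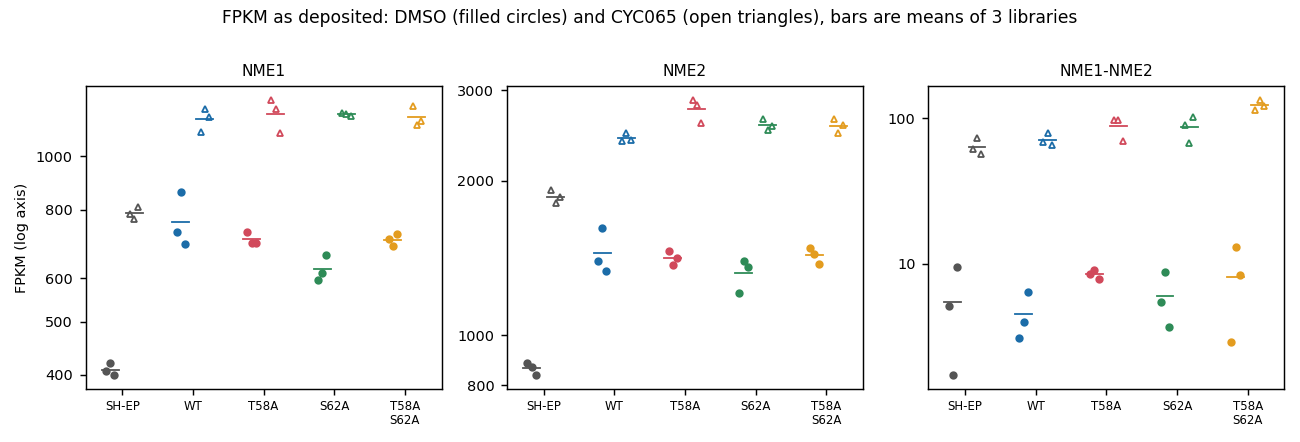
FPKM as deposited, on log axes, of NME1, NME2, and the read-through row NME1-NME2 in each library, by line, with DMSO (filled circles) or CYC065 (open triangles), and with bars at the means of 3 libraries. On average NME1 and NME2 lie higher with CYC065 as deposited and lower on the spike-in scale, while NME1-NME2 lies higher on both.

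Other genes of these pathways were also compared with SH-EP on FPKM as deposited, where 19.2% of all tested genes were higher and 13.4% lower in all 4 lines. Of 19 tested genes of purine interconversion, salvage, and breakdown, 5 were higher and 1 was lower in all 4 lines. AK4, a mitochondrial adenylate kinase, changed by 2.06 ± 0.21 (SE, adjusted p = 9.48e-09) from a low level, with 0.3001, 0.195 and 0.0965 FPKM in SH-EP. PNP, which splits purine nucleosides, changed by 1.35 ± 0.06 (SE, adjusted p = 4.95e-16), and NT5E, the surface 5′-nucleotidase, by -0.78 ± 0.04 (SE, adjusted p = 9.91e-15). Of 19 genes listed under pyrimidine salvage and breakdown 2 were higher and 3 lower. UCKL1, a uridine-cytidine kinase, changed by 0.57 ± 0.08 (SE, adjusted p = 9.63e-07) and CMPK1, the UMP and CMP kinase, by 0.54 ± 0.05 (SE, adjusted p = 1.65e-09). The mitochondrial thymidine kinase TK2 changed by -0.88 ± 0.12 (SE, adjusted p = 7.91e-07). DPYSL2, listed there by gene family and not as a known enzyme of the pathway, changed by -0.46 ± 0.07 (SE, adjusted p = 2.21e-06). Of 17 tested genes (of 22 listed) of the folate, glycine, and methionine cycles 8 were higher and 1 lower. AHCY, which clears S-adenosylhomocysteine, changed by 1.29 ± 0.05 (SE, adjusted p = 2.06e-16), the reduced folate carrier SLC19A1 by 0.95 ± 0.10 (SE, adjusted p = 8.56e-09), and methionine synthase MTR by -0.52 ± 0.06 (SE, adjusted p = 7.43e-08). Of 9 genes of the pentose phosphate pathway and PRPP 2 were higher in all 4 lines. They were RPIA, which makes ribose 5-phosphate, at 0.74 ± 0.06 (SE, adjusted p = 7.37e-11), and TKT, transketolase, at 0.40 ± 0.06 (SE, adjusted p = 1.13e-06). On the spike-in scale, where the median gene stands at -1.17, the mean changes of AK4, PNP, UCKL1, CMPK1, AHCY, SLC19A1, RPIA, and TKT were 1.22, 0.10, -0.67, -0.71, 0.04, -0.29, -0.51 and -0.85, and those of NT5E, TK2, DPYSL2, and MTR were -2.03, -2.12, -1.71 and -1.77.

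With CYC065, on the spike-in scale, 11 to 19 of the 19 purine interconversion genes, 11 to 19 of the 19 pyrimidine salvage genes, 14 to 17 of the 17 folate and methionine genes, 4 to 9 of the 9 pentose phosphate genes, and 17 to 20 of the 20 S-phase genes were lower across the 5 lines, where 75.7% to 93.7% of all tested genes were. In each line 0 of these genes were higher by limma, at an adjusted or an unadjusted p under 0.05. Their median of the mean change was -0.80, -0.75, -1.42, -0.66 and -0.995, beside -1.20 for all tested genes and -0.94 for the 33 members.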

How the data were processed

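RNA-Seq was analysed from the processed table of 30 libraries, 3 in each of 10 groups. Per the labels and the study's methods, the authors extracted total RNA, added ERCC spike-ins by cell number, made libraries from poly(A) RNA with a strand-aware kit, mapped the reads with HISAT2 to the build hg19 (GRCh37), and let Cufflinks 2.2.1 estimate FPKM (fr-firststrand). The annotation used is not given in the sources used here. The deposited values are FPKM without spike-in scaling, since the 92 spike-in rows differ between libraries, and hold no read counts. Spike-in scaled FPKM were computed here by equalizing the median log2 level of 55 spike-ins that averaged 1 FPKM or more.

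Log2(FPKM + 0.1) was taken for the 11575 genes averaging 1 FPKM or more and fitted with limma 3.58.1 (R 4.3.3; 1 fit over 10 groups, eBayes with trend, Benjamini-Hochberg over all tested genes, threshold 0.05). A fold change on this scale understates the change of low genes. Line and mutant contrasts used FPKM as deposited, and CYC065 and interaction contrasts used spike-in scaled FPKM. Ratios were tested with exact permutations in R 4.3.3, and Python 3.11.15 was used for annotation, counts, and figures. Steps were tested on simulated data. Within-group correlations across genes were 0.925 to 0.959, and 0 pairs of libraries were identical.

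The members and gene lists were chosen with earlier results of these data known. Values in every library are given for up to 6 members higher and 6 lower in all 4 lines, ordered by the smallest change, the 5 with the largest and the 5 with the smallest fall with CYC065, members past the threshold in at least 2 interactions (there were none), the largest change in each mutant, and CAD, PPAT, IMPDH2, CTPS1, RRM2, TYMS, SHMT2, and MTHFD2. Those of TK1 were added after its values were seen. From other lists, up to 2 rising and 2 falling genes past the threshold in all 4 lines are named. Alternatives were other pseudocounts (1 and 0.01), filters (none and 5 FPKM), scalings, spike-ins of at least 50 FPKM, fits of the compared groups only, a 1.5-fold minimum, and leaving out each library. Of the adrenergic markers listed for the check of the cell type, 1 is not reported here and was left out of the sum.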

Additional observations from a re-analysis of the deposited data

Results flagged for a closer look

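The response to CYC065 with WT MYCN differed from that in SH-EP for 9 members by the interaction test on spike-in scaled FPKM (limma, adjusted p from 0.0362 to 0.0469). The difference of the log2 changes was -0.854 for IMPDH1, -0.774 for RRM2, -0.809 for TYMS, -0.729 for DUT, -0.756 for NME1, -0.794 for NME2, -0.899 for TK1, -0.899 for APRT, and -0.789 for MTHFD2. The median of all tested genes in the same comparison was -0.52, and the count of 9 became 0 without any 1 of 8 of the 12 libraries compared, as given above.

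The read-through row NME1-NME2, which is outside the list of members, was higher with CYC065 than with DMSO by 2.52 ± 0.22 on the log2 scale (SE; limma, adjusted p = 1.25e-11) over the 5 lines on spike-in scaled FPKM.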

How the results depend on the processing

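The scaling decided the directions. On the spike-in scale the counts of members higher against SH-EP fell to 0 in each line and those lower rose to 29, 17, 33 and 14 (WT, T58A, S62A, and T58A S62A), and against WT they became 3 higher and 0 lower with T58A, 0 and 31 with S62A, and 9 and 0 with T58A S62A. The mean line change turned for all 28 members that were higher as deposited, to CAD -0.58, DHODH -0.45, UMPS -0.84, CTPS1 -0.63, PRPS1 -0.57, PRPS2 -0.85, PPAT -0.61, GART -0.91, PFAS -0.42, PAICS -0.39, ADSL -0.70, ATIC -0.80, IMPDH1 -0.61, GMPS -0.77, RRM2 -0.99, RRM2B -0.99, TYMS -0.89, DCTPP1 -0.0556, NME1 -0.48, NME2 -0.55, UCK2 -0.33, APRT -0.41, HPRT1 -0.90, MTHFD1 -0.73, MTHFD2 -0.34, MTHFD1L -0.47, SHMT1 -0.66 and SHMT2 -0.88, and for CTPS2, RRM1, DUT, and TK1, which did not pass as deposited, the mean became -1.10, -1.20, -1.16 and -1.24. With FPKM as deposited, the members higher with CYC065 were 24, 23, 24, 22 and 25 (SH-EP and then the MYCN lines as above). Those lower were 4, 3, 2, 5 and 4. The interaction gave 3 higher and 13 lower with WT (10.4% and 18.1% of tested genes). With T58A it gave 5 higher and 9 lower (9.9% and 14% of tested genes). With S62A these were 2 and 7 (10.9% and 13.7%), and with T58A S62A 3 and 10 (10.6% and 14.8%). The mean CYC065 change turned for 28 members, to CTPS1 0.11, CTPS2 0.31, PRPS1 0.50, PRPS2 0.0553, PPAT 0.0595, GART 0.27, PAICS 0.71, ADSL 0.33, ATIC 0.44, IMPDH1 0.63, IMPDH2 0.40, RRM1 0.66, RRM2 0.29, RRM2B 0.58, TYMS 0.82, DUT 0.82, DCTPP1 0.0619, NME1 0.80, NME2 0.92, TK1 0.75, UCK2 0.16, APRT 0.77, HPRT1 0.80, MTHFD1 0.60, MTHFD2 0.21, MTHFD1L 0.68, SHMT1 0.35 and SHMT2 0.55. With libraries centred on their median gene, members higher with CYC065 were 27, 25, 28, 28 and 26 and lower 4, 2, 1, 1 and 2. The interaction then gave 3 higher and 12 lower with WT (11.6% and 14.1% of tested genes). With T58A it gave 6 and 6 (11.3% and 10.2%). With S62A these were 2 and 4 (11.8% and 11.1%), and with T58A S62A 3 and 9 (11% and 13.2%). Against WT, 3 members were higher with T58A S62A (8.9% of tested genes). The mean CYC065 change turned for 29 members, to CTPS1 0.28, CTPS2 0.47, PRPS1 0.66, PRPS2 0.22, PPAT 0.22, GART 0.44, PFAS 0.0823, PAICS 0.87, ADSL 0.49, ATIC 0.61, IMPDH1 0.79, IMPDH2 0.57, RRM1 0.83, RRM2 0.45, RRM2B 0.74, TYMS 0.98, DUT 0.98, DCTPP1 0.23, NME1 0.97, NME2 1.09, TK1 0.91, UCK2 0.32, APRT 0.93, HPRT1 0.97, MTHFD1 0.77, MTHFD2 0.38, MTHFD1L 0.84, SHMT1 0.51 and SHMT2 0.72. Only the spike-ins are tied to cell number, and which scaling is nearer to RNA per cell was not tested.

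Requiring a change of at least 1.5-fold left 16, 16, 13 and 13 members higher against SH-EP (lines in the same order), 0 lower with WT, T58A, and T58A S62A, and 0 in either direction against WT, which follows from the stricter limit. The counts of members in this paragraph are given without shares of all tested genes, so they cannot be set against the background. Fitting only the groups compared, with fewer libraries for the spread, left 2 lower against WT in each mutant, 0 higher with S62A and T58A S62A, and 3 in the WT interaction. The WT interaction fell to 0 with no filter, which tests more genes, and with the 21 spike-ins of at least 50 FPKM, where the members lower with CYC065 in T58A also fell to 16. With a pseudocount of 1 the S62A interaction had 1 higher. Leaving out 1 library gave 3 to 6 members lower against WT with T58A, 4 to 9 with S62A, 3 to 5 higher with T58A S62A, 0 to 20 lower in the WT interaction, 0 to 1 lower in that of T58A (1 without library a of T58A with DMSO), and 0 to 1 higher in that of T58A S62A (1 without its library a with CYC065). The NME1/NME2 difference from SH-EP ranged from 0.0458 to 0.0857 and passed without library b of S62A with DMSO. RRM2B lost its call over the 4 lines with no filter, in the fit of the groups compared only, and without library b (0.19) or c (0.23) of SH-EP. Pseudocounts of 0.01 and a filter at 5 FPKM changed no count by over 1.5 times. No paired analysis was possible because the columns of the table carry suffixes from 0 to 2 and not the replicate numbers of the labels. FPKM without counts give no counting interval, and 3 libraries per group limit the precision.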
